A study of Mus musculus with 14 samples.

Results

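ER-associated degradation (ERAD) genes were followed through 3 comparisons of mouse pancreatic β-cells and islets. The 10 genes were taken by symbol out of 37310 Ensembl identifiers: the derlins Derl1, Derl2 and Derl3, the ubiquitin ligase gene Syvn1 with its partners Sel1l and Herpud1, the lectin gene Os9, and the mannosidase-like genes Edem1, Edem2 and Edem3. All 10 passed the filter on low counts in every comparison. They were selected on earlier results of these data, in which the log2 fold change of Derl3 was among the lowest between TSC1 KO and control islets, so their values in that comparison are a description and carry no p-value.

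β-cells of wild-type adults at postnatal day 45 (n = 3) were set against β-cells of wild-type neonates at day 6 (n = 3). Whole islets labelled TSC1 KO, from mice 8 weeks old (n = 2), were set against whole islets of controls of the same age (n = 2), both carrying the label prefix RC. Tsc1 encodes an inhibitor of the growth kinase complex mTORC1, and the series names the knockout with a β for the β-cell. Whole islets labelled Db, from mice 4 weeks old (n = 2), were set against controls of the same age (n = 2), both carrying the prefix BKS. Db is the usual name of leptin receptor mutations that make mice obese and diabetic. The strain is given as C57BL/6 for every library. The Cre line, the Tsc1 and Lepr alleles, sex, the way β-cells were obtained and whether libraries of a group came from separate animals are not given in the sources used here, and p-values here rest on the spread between libraries, which may be technical.

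ERAD removes proteins that fail to fold in the ER. Lectins and mannosidase-like proteins mark a misfolded glycoprotein, a membrane complex built on the ligase HRD1 (the product of Syvn1) and its cofactor SEL1L moves it across the membrane and attaches ubiquitin, and the proteasome destroys it in the cytosol. Many genes of the pathway are induced by the unfolded protein response, in part through the transcription factors XBP1 and ATF6. β-cells make proinsulin in large amounts in the ER, and proinsulin is a known substrate of the HRD1 and SEL1L complex.

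The promoters of 3 of the genes hold a sequence element of the unfolded protein response. They are shown because they belong to the gene with the largest differences in both islet comparisons, Derl3, to the ligase gene, Syvn1, and to Herpud1. The windows are the 250 bases before the gene start in RefSeq's GRCm38.p6 table, which held 9 of the 10 genes (all but Derl1) in 10 windows. Capitals mark the element. The ER stress response element ERSE, the letters CCAAT, then 9 bases of any kind, then CCACG, is in Derl3 (on the opposite strand) and in Syvn1 (on the gene strand), and ERSE-II, the letters ATTGG, then 1 base of any kind, then CCACG, is in Herpud1 (on the gene strand).
Derl3, chr10:75893148-75893397, plus strand: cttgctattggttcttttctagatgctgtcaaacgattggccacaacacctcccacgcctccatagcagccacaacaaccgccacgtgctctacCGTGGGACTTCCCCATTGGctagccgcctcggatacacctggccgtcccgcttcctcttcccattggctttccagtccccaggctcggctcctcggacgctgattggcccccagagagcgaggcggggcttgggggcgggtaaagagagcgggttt
Syvn1, chr19:6046326-6046575, plus strand: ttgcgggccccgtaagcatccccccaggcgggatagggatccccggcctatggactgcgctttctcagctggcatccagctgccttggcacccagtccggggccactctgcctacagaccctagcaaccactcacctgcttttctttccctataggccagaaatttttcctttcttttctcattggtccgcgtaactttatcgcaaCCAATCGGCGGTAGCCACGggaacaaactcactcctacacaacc
Herpud1, chr8:94386179-94386428, plus strand: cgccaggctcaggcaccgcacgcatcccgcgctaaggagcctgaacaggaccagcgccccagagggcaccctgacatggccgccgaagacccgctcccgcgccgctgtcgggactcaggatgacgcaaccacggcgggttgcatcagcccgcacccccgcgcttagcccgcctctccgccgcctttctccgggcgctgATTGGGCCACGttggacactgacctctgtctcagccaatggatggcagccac
The element begins 156 bases before the start in Derl3, 44 bases before it in Syvn1 and 52 bases before it in Herpud1. Both strands of each window were searched, and a match that runs past the end of a window is not counted. The Herpud1 window ends in CCAAT, then 9 bases, then CCAC, which is ERSE without its last base. Whether Herpud1 also holds a full ERSE at the gene start was therefore not seen. ERSE occurs in 0.113% and ERSE-II in 0.0304% of the 32851 windows of that length in the table. The core of the XBP1 element UPRE, TGACGTGG, is in 0.563% of them and in none of the 10 windows of these genes. The elements do not overlap each other, and a match says only that these letters are there.

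The libraries held between 3507929 and 17688772 gene counts. Levels are given as CPM, each count divided by its library's total after edgeR's TMM factor and brought to the same base in all libraries, and a gene is called higher or lower when edgeR's quasi-likelihood test has an adjusted p under 0.05 over all genes tested. Insulin genes took 4.36% to 7.22% of gene counts in adult and 1.83% to 2.62% in neonatal β-cells, 0.969% to 1.05% in TSC1 KO and 24.5% to 27.9% in RC control islets, and 45.5% to 48.3% in Db and 61.0% to 70.0% in BKS control islets. Tsc1 itself stood at 31.0 and 34.4 CPM in the TSC1 KO libraries, against 25.1 and 54.1 CPM in RC controls (log2 fold change -0.28 ± 0.38, edgeR adjusted p = 0.638). The counts cover the whole gene and all islet cells, so they do not check a deletion of some exons in β-cells. Lepr had 1 and 4 counts in Db islets and 11 and 2 counts in BKS control islets, too few to compare. Neonatal replicate 3a stood apart from the other neonatal libraries in these genes: it was the highest of the 3 for 8 of them and the lowest for Os9 and Edem2.

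**Figure D1:**
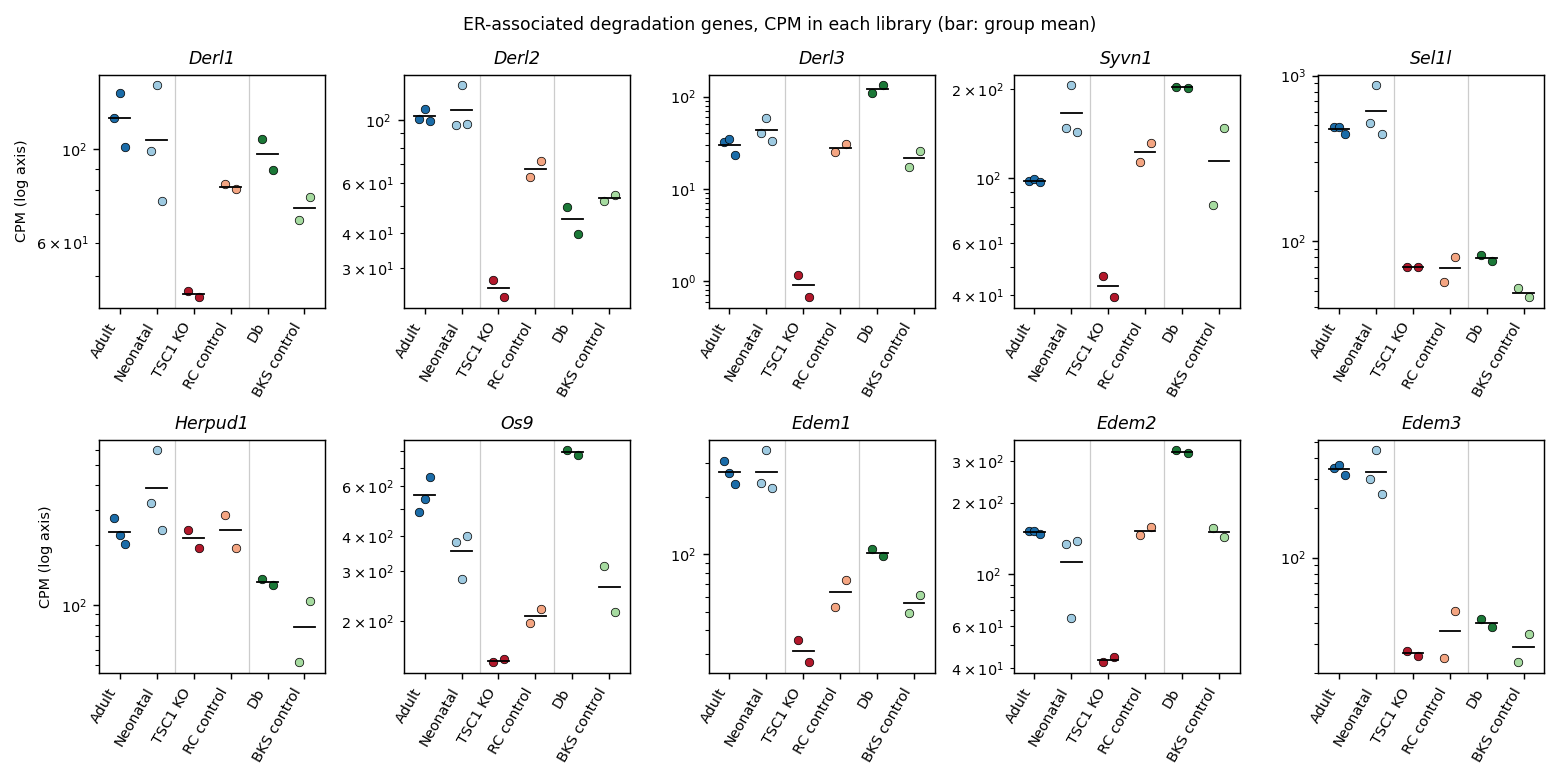
CPM (log axis) of the 10 ERAD genes in each of the 14 libraries; each point is a library and each bar a group mean. Derl3 reached 109 and 133 CPM in Db islets and 1.17 and 0.669 CPM in TSC1 KO islets, outside the range of every other library.

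In Db islets 7 of the 10 genes were called higher and none lower: Derl3, Sel1l, Syvn1, Herpud1, Os9, Edem1 and Edem2. The background was high, with 48.2% of 14369 genes called, 24.3% higher and 23.9% lower. The median log2 fold change was 0.79 over the 10 genes and -0.03 over all genes tested. The Db and control libraries did not overlap for any of the 10, with 9 genes higher and Derl2 lower in Db, where 37.2% of all genes were higher and 37.5% lower without overlap. With 1 library of an islet group left out, the other library of that group stands alone and is assumed to vary like the libraries of the group it is set against. Scaling by library size alone shifted the median of all genes to 0.29, and the share of calls that were higher to 71.8%, against 50.4% with TMM.

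In TSC1 KO islets 9 of the 10 genes had a log2 fold change below 0, the exception being Sel1l, and no call is counted for them because this comparison prompted their choice. The median log2 fold change was -0.93 over the 10 genes, from -4.84 to 0.03, and -0.00 over all 14515 genes tested. Both knockout libraries lay below both controls in 7 of the 10 and above them in none, where 34% of all genes were lower and 33.6% higher without overlap; nothing is read from this count. Among all genes 18.6% were called, 8.63% higher and 10% lower. No gene of the whole table was called by edgeR without TSC1 KO replicate 1 or without replicate 2, where 3535 and 3061 genes had an unadjusted p under 0.05. With any 1 library left out the log2 fold change of Derl3 lay between -5.35 and -4.56, that of Edem2 between -1.86 and -1.75 and that of Derl1 between -0.88 and -0.83. Scaling by library size alone gave 27.8% of calls as higher, against 46.3% with TMM, and a median of all genes of -0.25.

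In adult β-cells 1 gene, Os9, was called higher and 1, Syvn1, lower. Over all 14304 genes 6.98% were called, 3.38% higher and 3.6% lower. The median log2 fold change was -0.04 over the 10 genes and -0.03 over all genes. Adult and neonatal libraries did not overlap for Os9 and Edem2, which were higher, and Syvn1, which was lower, as for 14% and 13.4% of all genes in those directions. Scaling by library size alone gave 26.9% of calls as higher, against 48.4% with TMM, with the median of all genes at -0.19.

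**Figure D2:**
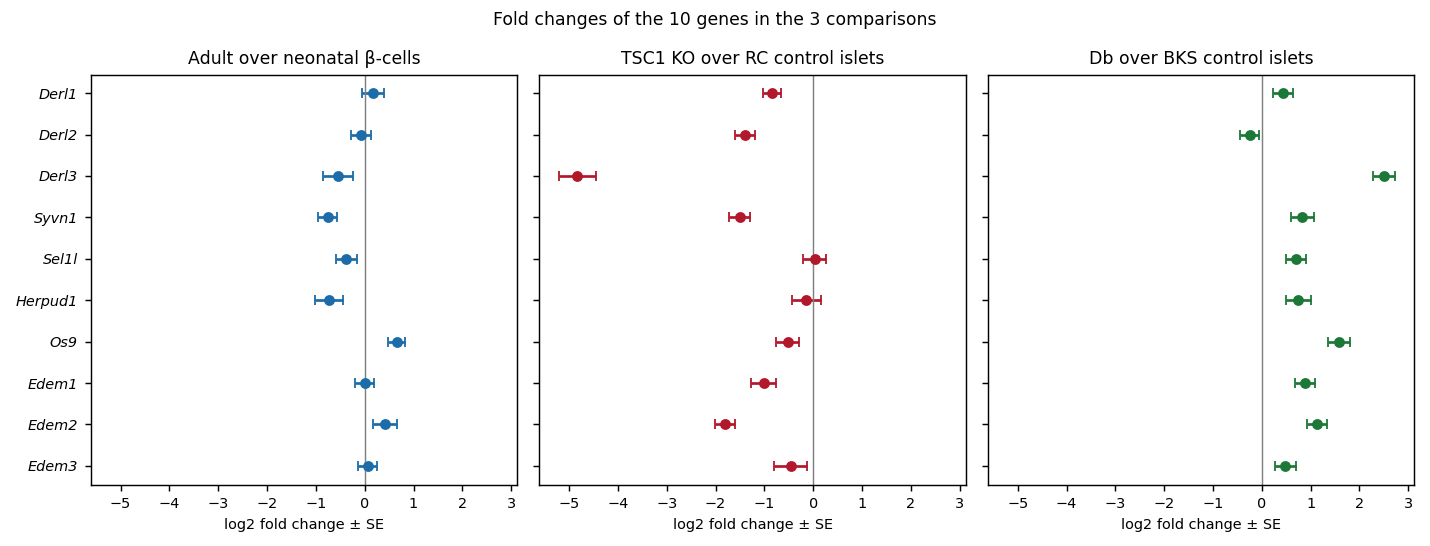
Log2 fold changes (points) with their standard errors (bars) of the 10 genes in the 3 comparisons, each with the first-named group over its control. Adult over neonatal values lie between -0.76 and 0.66, TSC1 KO values between -4.84 and 0.03, and Db values between -0.25 and 2.50.

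The derlins are rhomboid-like membrane proteins without protease activity that help misfolded proteins out of the ER; Derl2 and Derl3 are known to be induced under ER stress. Derl3 stood at 109 and 133 CPM in Db islets, against 17.3 and 25.7 CPM in BKS control islets. Both Db libraries were far above both controls. Derl3 averaged 121 ± 16.9 CPM in Db islets and 21.5 ± 5.88 CPM in BKS control islets (SD, n = 2 each), a log2 fold change of 2.50 ± 0.23 (SE), or 5.66-fold higher (edgeR adjusted p = 8.75e-10). It stayed called under every alternative tried, with log2 fold changes of 2.27 to 2.85.

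In TSC1 KO islets Derl3 had 5 and 2 counts, against 159 and 209 counts in RC control islets. That is 1.17 and 0.669 CPM in the knockout libraries and 25.1 and 30.7 CPM in the controls. The knockout libraries were near the floor of 3 counts and the controls far above it. Summed over libraries and depth, the knockout level was lower and the control level 29.2 times as high, with a 95% interval of 14.0 to 73.0 that covers counting error only, and the fitted log2 fold change was -4.84 ± 0.38. Derl3 ranked as the gene with the 37th largest change of either sign among the 14515 tested. Its low value here prompted the choice of these genes, so the interval and the rank restate that choice and are a description.

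Derl3 in β-cells was at 32.5, 34.4 and 23.3 CPM in adults, against 40.0, 59.0 and 32.9 CPM in neonates. The groups overlapped and the difference was not called (log2 fold change -0.55 ± 0.30, edgeR adjusted p = 0.333). Without neonatal replicate 3a the log2 fold change was -0.27 (edgeR adjusted p = 0.689). Across the 6 groups the means were 121 CPM in Db, 0.917 CPM in TSC1 KO, 30.1 CPM in adult, 43.9 CPM in neonatal, 27.9 CPM in RC control and 21.5 CPM in BKS control libraries. Ordered by level, neonatal and adult, adult and RC control, and RC control and BKS control libraries overlapped, and the Db and TSC1 KO libraries overlapped with no other group. The 3 tables were normalized separately, so this order is a description.

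Derl1 was at 106 and 89.4 CPM in Db islets, against 67.8 and 76.9 CPM in BKS control islets. The groups did not overlap, but the difference was not called (log2 fold change 0.43 ± 0.20, edgeR adjusted p = 0.0733; 0.0225 without BKS control replicate 2 and 0.0316 without the low-count filter). Derl1 was at 45.9 and 44.5 CPM in TSC1 KO islets, against 82.5 and 80.5 CPM in RC controls, a log2 fold change of -0.85 ± 0.18. The libraries of each of these 2 groups lay close together and the groups were well apart. Derl1 in adult β-cells was at 118, 136 and 102 CPM, against 99.1, 142 and 75.3 CPM in neonatal β-cells, which overlapped (log2 fold change 0.17 ± 0.23, edgeR adjusted p = 0.754; -0.02 without neonatal replicate 3b).

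Derl2 was at 49.6 and 39.8 CPM in Db islets, against 52.0 and 54.3 CPM in BKS control islets. The Db libraries were lower without overlap, but the difference was not called and its sign depended on the scaling (log2 fold change -0.25 ± 0.20, edgeR adjusted p = 0.309; 0.06 with library size alone). Its level in TSC1 KO islets was 27.3 and 23.7 CPM, against 62.9 and 71.9 CPM in RC control islets, a log2 fold change of -1.40 ± 0.20. Adult β-cells had 101, 109 and 99.6 CPM of Derl2 and neonatal β-cells 96.1, 133 and 97.0 CPM, which overlapped (log2 fold change -0.07 ± 0.20, edgeR adjusted p = 0.892; 0.10 without neonatal replicate 3a). In the annotation 231 of the 8049 exonic bases of Derl2 also belong to Mis12 on the opposite strand, and the strand setting of the counting is not stated.

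Set against each other per kilobase of the longest transcript, the derlins stood in different proportions between groups, given here as a description. Derl3 made up 65.0% and 73.0% of derlin CPM per kb in Db islets, against 28.3% and 34.7% in BKS control islets. Its share was 4.09% and 2.54% in the TSC1 KO libraries, against 32.0% and 35.8% in RC control islets. Among β-cells it made up 28.9%, 27.7% and 24.3% in adults, against 36.3%, 37.2% and 35.1% in neonates. The groups did not overlap in any of the 3 comparisons, also not in β-cells, where the level of Derl3 overlapped. Derl1 was the largest of the 3 in TSC1 KO islets, at 67.0% and 70.2%, against 43.7% and 38.9% in RC controls.

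**Figure D3:**
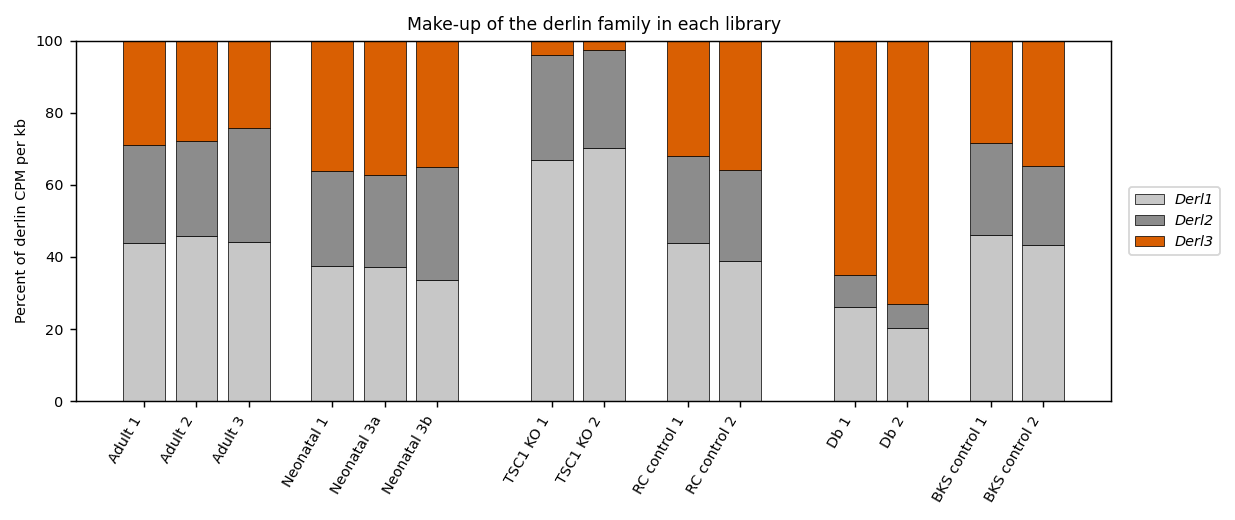
Share of summed derlin CPM per kb of transcript (percent) that Derl1, Derl2 and Derl3 each took, 1 bar per library. The Derl3 part takes 65.0% and 73.0% of the bars of Db islets and 4.09% and 2.54% of those of TSC1 KO islets, and between 24.3% and 37.2% of all others.

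Syvn1 encodes HRD1, the ubiquitin ligase at the centre of the complex. It was at 204 and 202 CPM in Db islets, against 81.2 and 148 CPM in BKS control islets. The Db libraries lay close together and above both controls, which were far apart (log2 fold change 0.83 ± 0.23, edgeR adjusted p = 0.00545; between 0.49 and 1.35 with a library left out, called each time). Knockout islets had 46.4 and 39.5 CPM of Syvn1, against 113 and 131 CPM in RC control islets, a log2 fold change of -1.51 ± 0.22 with no overlap.

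Adult β-cells had 97.5, 99.5 and 97.1 CPM of Syvn1, against 148, 206 and 143 CPM in neonatal β-cells. Every adult library lay below every neonatal one, and Syvn1 fell in adults by 0.76 ± 0.19 on the log2 scale (edgeR adjusted p = 0.0247). The call held without neonatal replicate 3a (log2 fold change -0.56, edgeR adjusted p = 0.0465) and was lost without adult replicate 1, 2 or 3 (edgeR adjusted p = 0.107, 0.112 and 0.110). Of its 4859 exonic bases 91 also belong to Mrpl49 on the opposite strand.

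Sel1l encodes the partner that stabilizes HRD1 and receives substrates from the lectins. It was at 82.9 and 76.1 CPM in Db islets, against 51.9 and 46.0 CPM in BKS control islets. The groups did not overlap and Sel1l rose in Db islets (log2 fold change 0.70 ± 0.20, edgeR adjusted p = 0.00496; 0.0569 without Db replicate 1). Knockout islets had 70.1 and 70.2 CPM of Sel1l, against 57.0 and 80.5 CPM in RC control islets, a log2 fold change of 0.03 ± 0.23 that lay between -0.20 and 0.30 with 1 library left out. The knockout libraries lay between the controls. Sel1l in adult β-cells was at 489, 487 and 444 CPM, against 518, 876 and 443 CPM in neonatal β-cells, which overlapped (log2 fold change -0.37 ± 0.21, edgeR adjusted p = 0.347; -0.02 without neonatal replicate 3a).

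The ratio of Sel1l to Syvn1 per kb of transcript was 0.980 and 1.15 in the knockout libraries, against 0.326 and 0.397 in those of RC control islets. It was 3.25, 3.17 and 2.96 in adult β-cells, against 2.27, 2.75 and 2.01 in neonatal β-cells. Neither pair of groups overlapped. In Db islets the ratio was 0.264 and 0.243, against 0.414 and 0.201 in BKS control islets, which overlapped.

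Herpud1 encodes HERP, a ubiquitin-like membrane protein that organizes the HRD1 complex and is itself a target of ER stress signalling. It was at 135 and 127 CPM in Db islets, against 51.7 and 105 CPM in BKS control islets. Db was higher without overlap and the gene was called (log2 fold change 0.75 ± 0.26, edgeR adjusted p = 0.0251), but not without BKS control replicate 1 (log2 fold change 0.35, edgeR adjusted p = 0.161). Herpud1 was at 237 and 194 CPM in TSC1 KO islets, against 283 and 193 CPM in RC control islets, overlapping, with a log2 fold change of -0.14 ± 0.30 that lay between -0.39 and 0.17 with 1 library left out.

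Adult β-cells had 274, 224 and 202 CPM of Herpud1, against 325, 594 and 239 CPM in neonatal β-cells. Neonatal replicate 3a was far above the rest and the groups overlapped. The difference was not called (log2 fold change -0.72 ± 0.29, edgeR adjusted p = 0.175) and shrank to -0.27 without replicate 3a (edgeR adjusted p = 0.399); without neonatal replicate 3b it was -0.97 and called (edgeR adjusted p = 0.0244). It was also called at about the same size without the low-count filter (edgeR adjusted p = 0.00179) and with DESeq2 (adjusted p = 0.0491).

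Os9 encodes an ER lectin that reads trimmed mannose chains and hands glycoproteins to SEL1L. It was at 805 and 778 CPM in Db islets, against 314 and 215 CPM in BKS control islets. With Db far above and no overlap, Os9 averaged 792 ± 19.0 CPM in Db and 264 ± 70.0 CPM in BKS control islets (SD, n = 2 each), a log2 fold change of 1.58 ± 0.23 (edgeR adjusted p = 2.33e-06), called under every alternative. Knockout islets had 143 and 147 CPM of Os9, against 196 and 220 CPM in RC control islets, lower without overlap, with a log2 fold change of -0.52 ± 0.23.

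Os9 in adult β-cells was at 489, 543 and 646 CPM, against 381, 282 and 401 CPM in neonatal β-cells. All adult libraries lay above all neonatal ones and the gene rose in adults (log2 fold change 0.66 ± 0.17, edgeR adjusted p = 0.0276). The call held without neonatal replicate 3a (log2 fold change 0.52, edgeR adjusted p = 0.0371). It was lost without adult replicate 1, 2 or 3 (edgeR adjusted p = 0.0516, 0.0929 and 0.164) and with library size alone (log2 fold change 0.49, edgeR adjusted p = 0.104).

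EDEM proteins trim or recognize mannose on misfolded glycoproteins and pass them on for degradation. Edem2, known as the starter of this trimming in human cells, was at 332 and 323 CPM in Db islets, against 156 and 144 CPM in BKS control islets. The groups were well apart and Edem2 rose 2.19-fold in Db islets (edgeR adjusted p = 5.80e-05). Knockout islets had 42.2 and 44.5 CPM of Edem2, against 145 and 157 CPM in RC control islets, a log2 fold change of -1.80 ± 0.21; among the 10 genes only Derl3 differed more. Adult β-cells had 151, 152 and 147 CPM of Edem2, against 134, 65.2 and 138 CPM in neonatal β-cells, higher without overlap but not called (log2 fold change 0.42 ± 0.24, edgeR adjusted p = 0.350; 0.15 without neonatal replicate 3a).

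Edem1, an XBP1 target that hands substrates to the derlins, was at 107 and 97.5 CPM in Db islets, against 49.5 and 61.2 CPM in BKS control islets. It rose in Db without overlap (log2 fold change 0.88 ± 0.20, edgeR adjusted p = 0.000729). The level of Edem1 in TSC1 KO islets was 35.4 and 27.1 CPM, against 53.2 and 73.7 CPM in RC control islets, a log2 fold change of -1.02 ± 0.26. Adult β-cells had 309, 268 and 234 CPM and neonatal β-cells 236, 351 and 223 CPM of Edem1, overlapping, with a log2 fold change of -0.00 ± 0.19 (edgeR adjusted p = 0.999) whose sign turned under several alternatives.

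Edem3, the mannosidase-like member with a protease-associated domain, was at 42.6 and 38.1 CPM in Db islets, against 23.1 and 34.7 CPM in BKS control islets. The groups did not overlap, but the difference was not called (log2 fold change 0.49 ± 0.22, edgeR adjusted p = 0.0641; 0.00152 without BKS control replicate 2, 0.0323 with library size alone and 0.0214 without the low-count filter). Edem3 was at 27.0 and 25.4 CPM in TSC1 KO islets, against 24.6 and 47.4 CPM in RC control islets, overlapping, with a log2 fold change of -0.46 ± 0.34 that lay between -0.85 and 0.09 with 1 library left out. Edem3 in adult β-cells was at 352, 363 and 318 CPM, against 300, 447 and 243 CPM in neonatal β-cells, which overlapped (log2 fold change 0.06 ± 0.20, edgeR adjusted p = 0.914; -0.11 with library size alone).

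Summed over the 10 genes, Db islets held 1973 and 1905 CPM, against 864 and 910 CPM in BKS control islets. TSC1 KO islets held 676 and 617 CPM, against 1043 and 1086 CPM in RC control islets. Adult β-cells held 2413, 2415 and 2312 CPM, against 2278, 3157 and 2035 CPM in neonatal β-cells. The 2 islet pairs did not overlap and the β-cell groups did.

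Per kilobase of transcript, Os9 and Edem2 led the genes in Db islets, at 301 and 143 CPM per kb, followed by Derl3 at 91.9. In BKS control islets Os9 and Edem2 also led, at 101 and 65.4 CPM per kb, and Derl3 stood at 16.3, below Herpud1 at 40.1, Syvn1 at 28.1 and Derl1 at 22.8. Among TSC1 KO libraries Herpud1 led at 111 CPM per kb, ahead of Os9 at 55.2, and Derl3 was last at 0.694. RC control islets had Herpud1 at 122, Os9 at 79.2 and Derl3 at 21.1 CPM per kb. The lowest of the 10 in each control group was Edem3, at 5.69 CPM per kb in RC and 4.57 CPM per kb in BKS control islets.

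The islet comparisons use separate control libraries, and the difference between their effects was not tested. By sign, 8 of the 10 genes were lower in TSC1 KO and higher in Db islets, where 26.8% of the 12158 genes tested in all 3 comparisons were. The exceptions were Sel1l and Derl2. The TSC1 KO comparison prompted the choice of these genes, so nothing is read from this count. Derl3 was among 17 genes, itself included, with a log2 fold change as low as its own in TSC1 KO islets, and among 100 as high in Db islets, and it was the only gene in both groups. Both limits are the values of Derl3 itself, so it meets them by construction, and nothing is read from these counts. The nearest 5 genes to Derl3 by Euclidean distance over the 3 log2 fold changes were Lhx1, Rspo4, Ffar2, Kcnh6 and Entpd3. Lhx1, the closest at a distance of 0.867, had log2 fold changes of -0.90 in adult β-cells, -4.38 in TSC1 KO islets and 1.86 in Db islets. Entpd3, at a distance of 1.52, had -0.77, -4.04 and 1.22 in the same comparisons. This likeness rests on 3 values per gene and says nothing of shared function.

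**Figure D4:**
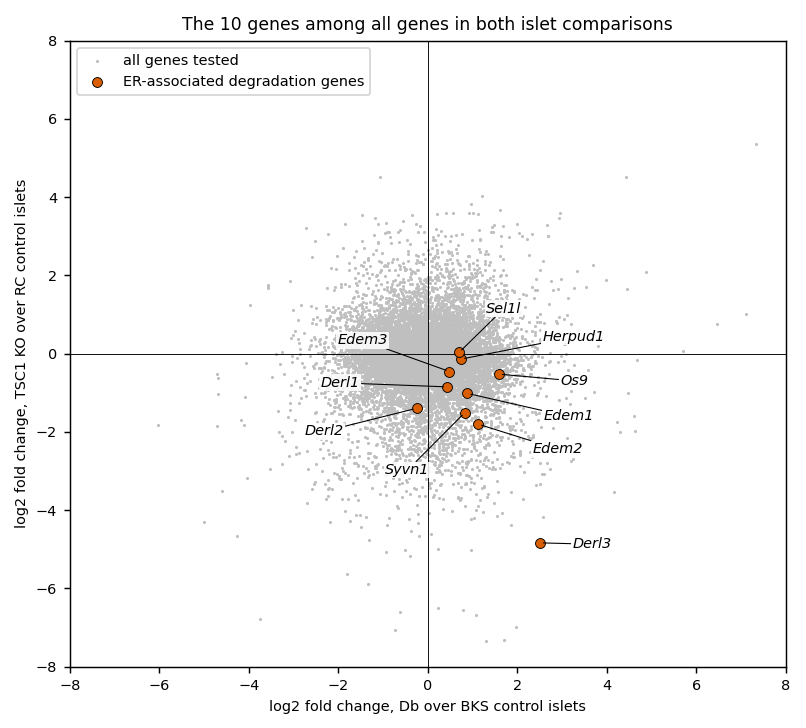
Log2 fold change in Db over BKS control islets (horizontal) against that in TSC1 KO over RC control islets (vertical) for 12158 genes tested in all 3 comparisons (grey), with the 10 ERAD genes in orange. Derl3, at 2.50 and -4.84, stands away from the other 9, of which 7 lie in the same quadrant of the plot. The TSC1 KO comparison prompted the choice of these genes, so their place in the plot is a description.

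Other genes of the pathway were described with a list of 44, from the ATPase Vcp and its adaptors to further ligases and lectins; values ± are SDs of the 2 libraries of an islet group. In Db islets 13 were called higher and 5 lower, with a median log2 fold change of 0.17. Among all genes 24.3% were called higher and 23.9% lower there, so the count of calls in this list does not stand out. Those with the largest rises were Sel1l3, a relative of Sel1l, at 41.3 ± 0.0710 CPM in Db and 5.42 ± 0.217 CPM in BKS control islets (log2 fold change 2.93 ± 0.24, edgeR adjusted p = 1.41e-10), and Tmub2, Tmem129 and Man1b1, with log2 fold changes of 1.70, 1.30 and 1.11. Tmem129 encodes a ubiquitin ligase and Man1b1 an ER mannosidase. The largest falls were in Atxn3, a deubiquitinase gene at 1.04 ± 0.170 CPM in Db and 3.44 ± 1.05 CPM in BKS control islets (log2 fold change -1.73 ± 0.41, edgeR adjusted p = 0.000937), and in Vcp, whose product pulls substrates from the membrane, at 76.3 ± 8.87 CPM in Db and 155 ± 18.6 CPM in BKS control islets (-1.03 ± 0.20, edgeR adjusted p = 0.000157; 0.0729 with library size alone). Rnf139 and Selenok were also called lower, at -0.73 and -0.60, and neither call held without Db replicate 2 (edgeR adjusted p = 0.397 and 0.278), with library size alone (0.379 and 0.473) or without the low-count filter (0.0601 and 0.0534). That of Rnf139 was also lost without BKS control replicate 2 (edgeR adjusted p = 0.447) and with DESeq2 (adjusted p = 0.125).

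In TSC1 KO islets 1 of the 44 was called higher and 6 lower, with a median log2 fold change of -0.20, where 8.63% of all genes were called higher and 10% lower. The 44 were chosen with earlier results of these data known, so this count and the calls are a description. Erlin2, a membrane scaffold of ERAD, was at 64.5 ± 10.5 CPM in TSC1 KO and 31.5 ± 1.05 CPM in RC control islets (log2 fold change 1.03 ± 0.21, edgeR adjusted p = 0.0263; 0.0519 with library size alone). The largest falls were in Selenos, a selenoprotein that recruits VCP, at 24.4 ± 0.0396 CPM in TSC1 KO and 64.2 ± 1.94 CPM in RC control islets (log2 fold change -1.39 ± 0.19, edgeR adjusted p = 0.013), and in H13, Txndc11 and Selenok, at -1.15, -1.07 and -0.97. Each edgeR call in these islets was lost with either knockout library left out. Adult β-cells had 1 of the 44 called higher, the lectin gene Erlec1, and none lower, with a median of 0.07. Among all genes 3.38% were called higher and 3.6% lower. Erlec1 was at 150 ± 18.5 CPM in adults and 86.0 ± 7.89 CPM in neonates (SD, n = 3 each; log2 fold change 0.80 ± 0.19, edgeR adjusted p = 0.0154), a call lost without any 1 of the adult libraries or neonatal replicate 3b (edgeR adjusted p between 0.0505 and 0.127).

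Chaperones and sensors of the unfolded protein response were described with a list of 24. In Db islets 11 were called higher and none lower, with a median log2 fold change of 0.46, where 24.3% of all genes were called higher and 23.9% lower. The sensor gene Ern1, whose product splices Xbp1 mRNA, was at 104 ± 16.8 CPM in Db and 38.2 ± 8.02 CPM in BKS control islets (log2 fold change 1.45 ± 0.21, edgeR adjusted p = 3.36e-06). Hspa5, the chaperone BiP, was at 1118 ± 183 CPM in Db and 648 ± 41.8 CPM in BKS control islets (0.79 ± 0.22, edgeR adjusted p = 0.00455; 0.119 without Db replicate 1). Xbp1, Atf6 and the co-chaperone gene Dnajb9 were not called, at -0.36, -0.40 and -0.53 (edgeR adjusted p = 0.146, 0.106 and 0.191). Dnajb9 was called lower without Db replicate 1 (log2 fold change -0.95, edgeR adjusted p = 0.00998) and without BKS control replicate 1 (-0.87, edgeR adjusted p = 7.51e-05). Counts per gene do not tell spliced from unspliced Xbp1 mRNA.

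In TSC1 KO islets 13 of the 24 were called lower and none higher, with a median of -1.11, where 10% of all genes were called lower and 8.63% higher. The 24 were also chosen with earlier results of these data known. This count and the calls are thus a description and no independent test. Dnajb9 was at 27.0 ± 5.84 CPM in TSC1 KO and 114 ± 0.404 CPM in RC control islets (log2 fold change -2.09 ± 0.23, edgeR adjusted p = 0.0109), and Hspa5 at 380 ± 89.4 CPM in TSC1 KO and 1244 ± 294 CPM in RC control islets (-1.71 ± 0.38, edgeR adjusted p = 0.0334). Like every edgeR call in these islets, both were lost with either knockout library left out. Xbp1, Ern1 and Atf6 were not called, at -0.79, -1.58 and -0.41 (edgeR adjusted p = 0.0636, 0.0671 and 0.411). The value of Ern1 moved with the control libraries, at -2.09 without RC control replicate 1 and -0.77 without RC control replicate 2, both called (edgeR adjusted p = 0.000805 and 0.0451), and it was called with library size alone and with DESeq2 (adjusted p = 0.0438 and 0.0127). Xbp1 was called without either control library, with library size alone, with DESeq2 and with limma-voom (adjusted p between 0.0273 and 0.0484), and Atf6 without RC control replicate 1 (log2 fold change -0.78, edgeR adjusted p = 0.0309). Adult β-cells had Ern1 called higher (log2 fold change 0.80 ± 0.19, edgeR adjusted p = 0.0206) and Creld2, Atf6b and Pdia4 called lower, of which the last 3 were chosen for naming after their values were seen. The median over the 24 was -0.14, and among all genes 3.38% were called higher and 3.6% lower. Between 0 and 5 of the 24 were called when 1 library was left out, and Ern1 was not called without adult replicate 1 or 3 or neonatal replicate 1 or 3b, nor with library size alone (edgeR adjusted p = 0.0583). Xbp1, Hspa5, Dnajb9 and Atf6 were not called in adults, at 0.48, -0.59, 0.48 and 0.33 (edgeR adjusted p = 0.0724, 0.0686, 0.214 and 0.265). Hspa5 was called lower with library size alone, without the low-count filter, without neonatal replicate 3b and with DESeq2 (adjusted p between 0.000411 and 0.0202), Xbp1 higher with DESeq2 (adjusted p = 0.0268), and Dnajb9 higher without neonatal replicate 3a (edgeR adjusted p = 0.0214).

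**Figure D5:**
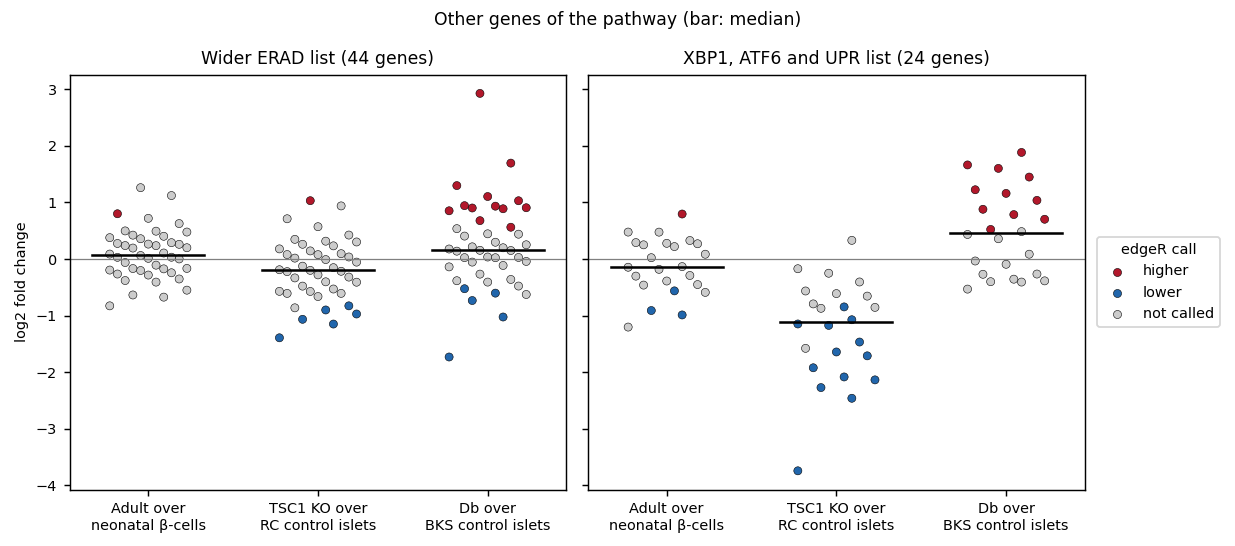
Log2 fold changes of the 44 other ERAD genes (left) and of the 24 unfolded protein response genes (right) in the 3 comparisons, 1 point per gene, coloured by edgeR's call, with the median as a bar. Medians over the 44 were 0.07, -0.20 and 0.17, and over the 24 were -0.14, -1.11 and 0.46, for adult, TSC1 KO and Db.

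Markers of several cell types moved with both islet comparisons, and in bulk samples fewer cells of a type and less RNA per cell cannot be told apart. Summed over their lists, β-cell markers (10 of 10 detected in every library) were at 12857 to 13364 CPM in TSC1 KO and 235001 to 265505 CPM in RC control islets, and other hormone cell markers (8 of 8) at 2926 to 7433 CPM in TSC1 KO and 26884 to 30918 CPM in RC control islets. Duct (7 of 7) markers were at 2158 to 2927 CPM in TSC1 KO and 283 to 933 CPM in RC control islets, endothelial (7 of 7) at 3551 to 4786 and 2317 to 2571 CPM in these groups, mesenchymal (6 of 6) at 627 to 4277 and 252 to 521 CPM, and stomach mucosa markers (8, of which 4 were at 0 in each group) at 190 to 320 and 10.9 to 19.7 CPM. These sums did not overlap, those of the hormone cells being lower and the others higher in TSC1 KO. Gene by gene, 9 of 10 β-cell markers were called lower and none higher, and of the other hormone cell markers 5 were called lower and 1, Hhex, higher, at 109 CPM in TSC1 KO and 17.4 CPM in RC control islets. Of the duct and the endothelial markers 2 each were called higher and none lower, of the stomach markers 4 higher, and of the mesenchymal markers none either way (6 of 6 above 0 by sign). Among all genes 8.63% were called higher and 10% lower. Acinar markers, from cells rich in the same ER machinery, overlapped at 1521 to 3841 CPM in TSC1 KO (15 of 16 in every library) and 2442 to 3727 CPM in RC control islets (16 of 16), although Bhlha15, a regulator of secretory cells on that list, was at 3.15 CPM in TSC1 KO and 48.9 CPM in RC control islets. Immune and plasma cell markers overlapped at 631 to 806 CPM in TSC1 KO and 571 to 883 CPM in RC control islets, with the plasma cell markers Jchain and Mzb1 at 0 in both knockout libraries. The part of these shifts in the ERAD values was not tested.

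In Db islets the β-cell markers (10 of 10) were at 427662 to 494645 CPM, against 599938 to 920478 CPM in BKS control islets. Acinar markers were at 235 to 391 CPM in Db (15 of 16 in every library) and 77.7 to 78.2 CPM in BKS control islets (14 of 16), with Ptf1a at 0 in Db replicate 2 and both controls, and Bhlha15 at 86.6 CPM in Db and 48.4 CPM in BKS control islets. Duct markers were at 712 to 747 CPM in Db and 290 to 293 CPM in BKS control islets, mesenchymal at 472 to 510 and 167 to 264 CPM in these groups, other hormone cells at 8484 to 9752 and 3296 to 6690 CPM, endothelial at 561 to 566 and 792 to 831 CPM, and stomach mucosa at 0.166 to 0.388 and 0.857 to 1.2 CPM. The sums of acinar, duct, mesenchymal and other hormone cell markers were thus higher in Db, and those of β-cell and endothelial markers lower, without overlap. The stomach sums were near 0 and no stomach marker passed the filter, so no direction is read from them. The genes within a list did not all follow its sum. The duct sum was mostly Krt7, at 660 CPM in Db and 194 CPM in BKS control islets, and of the duct markers 2 were called higher and 2, Sox9 and Spp1, lower (log2 fold changes -0.86 and -0.83). Of the β-cell markers 7 were called lower and 1, Iapp, 5.10-fold higher. Calls among the acinar markers were 8 higher and 1 lower, among the mesenchymal 4 and 0, among the other hormone cells 2 and 1, and among the endothelial 2 and 4. Among all genes 24.3% were called higher and 23.9% lower. Immune and plasma cell markers overlapped, at 45.4 to 61.1 CPM in Db and 59.0 to 78.7 CPM in BKS control islets. Their part in the ERAD values was not tested.

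Adult β-cells had β-cell markers at 55081 to 90900 CPM, against 24403 to 33545 CPM in neonatal β-cells. Acinar markers were at 82.2 to 121 CPM in adult and 143 to 191 CPM in neonatal β-cells, and duct markers at 240 to 277 CPM in adult and 433 to 540 CPM in neonatal β-cells. The acinar sum was mostly Bhlha15, at 82.4 CPM in adult and 114 CPM in neonatal β-cells and not called. The duct sum was mostly Krt7, at 162 CPM in adult and 352 CPM in neonatal β-cells and called lower. Called genes were 5 higher and none lower among β-cell markers, none higher and 1 lower among acinar, and none higher and 3 lower among duct markers. Among all genes 3.38% were called higher and 3.6% lower. The sums of the β-cell, acinar and duct markers did not overlap, while those of the other hormone cells did, at 532 to 2393 CPM in adult and 987 to 2070 CPM in neonatal β-cells. Endothelial, mesenchymal, immune and stomach markers summed to at most 36.4 CPM in adult and 163 CPM in neonatal libraries and overlapped. Their part in the values of Os9 and Syvn1 was not tested.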

How the data were processed

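The deposited files hold raw counts of reads per Ensembl gene, made by the authors, in 3 tables of 14 libraries. Per the labels' protocols, RNA was taken with Trizol and libraries were made with the SMARTer Stranded kit. The submitters' processing notes list the tools HTSeq 0.7.1, GSNAP, DESeq2 1.16.0 and cutadapt 1.13 beside 2 builds, mm9 and NCBIM37; which build served the counting, and its strand setting, are not given in the sources used here. Rows that name no gene were left out; gene rows held 24.5% to 43.1% of the reads in the β-cell table and 35.1% to 44.3% in the Db table.

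Groups came from the sample titles. The neonatal columns carry the number 3 on 2 columns and no number 2; these are called replicates 3a and 3b. Each table was fitted alone with edgeR 4.0.16 in R 4.3.3: filterByExpr (minimum count 10, minimum total 15), TMM, glmQLFit (robust), glmQLFTest, two-sided, Benjamini-Hochberg over all genes tested, threshold 0.05. SEs are the log2 fold change over the root of F. The fit was also run on simulated counts with the same dispersion for every gene. That run does not show how the fit performs on these libraries. Within groups, pairs of libraries differed by a chi-square of 7.87 to 69.9 per degree of freedom, so none was counted as a repeat. Alternatives were library size alone, DESeq2 1.42.0, limma 3.58.1 (voom), no filter, a mean CPM of at least 1, the replicate number as a block, and leaving out each library.

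Symbols (32620 identifiers, 87.4%) and transcript lengths came from GENCODE M21; promoter coordinates are on RefSeq's GRCm38.p6 and none were taken from the files. The genes and lists were chosen with earlier results of these data known. All 10 genes are named in each comparison; of the 44 other ERAD genes, up to 4 called in each direction with the largest change; of the 24 response genes, Xbp1, Ern1, Atf6, Hspa5 and Dnajb9. Intervals and floors (3 counts) cover counting error alone, since no molecular identifiers are named for these reads.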

Additional observations from a re-analysis of the deposited data

How the results depend on the processing

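Of the log2 fold changes of the 10 genes under the alternatives, the direction turned in 11 in adult β-cells, 1 in Db islets and 5 in TSC1 KO islets. In TSC1 KO islets these were Sel1l, between -0.22 and 0.30 over all alternatives, Herpud1, between -0.39 and 0.17, and Edem3, between -0.85 and 0.0890. In adults they were uncalled genes near 0: Edem1 at 0.0301 with limma-voom, 0.00497 with the stricter filter and 0.0019 with the block, and between -0.12 and 0.23 with 1 library left out; Edem3 at -0.11 with library size alone and between -0.12 and 0.34; Derl1 between -0.0192 and 0.45; Derl2 between -0.15 and 0.10. In Db islets Derl2 was at 0.0563 with library size alone. Atf6 in TSC1 KO islets lay between -0.78 and 0.10 with 1 library left out. Alternatives for the 24 response genes and for single genes of both wider lists were added after seeing the data.

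Genes called in adult β-cells numbered 1576 with DESeq2, against 999 with edgeR; of the 10 ERAD genes 1 was called with library size alone; of the 44 other ERAD genes 2 were called with library size alone, with DESeq2 and without the filter. With 1 library left out, 405 to 1380 genes, 0 to 3 of the 10 and 0 to 2 of the 44 were called in adults, where 2 or 3 of the 10 had an unadjusted edgeR p under 0.05 without an adult library; 0 to 4015 genes and 0 to 7 of the 44 in TSC1 KO islets; and 4419 to 6666 genes, 6 to 9 of the 10 and 13 to 21 of the 44 in Db islets. The cause was not tested.

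Whether the numbers in the labels pair the samples is not known. Deviations of libraries with the same number correlated between -0.0654 and 0.00391. These values cannot settle it. With 2 libraries a group, those of the same and of different numbers mirror each other by construction, and no neonatal column carries the number 2. With the replicate number as a block, 158 genes, 0 of the 10 and 0 of the 44 were called in adults. Of the 10, 2 had an unadjusted p under 0.05 there. For β-cells this block is uneven, since the number 2 stands on an adult library alone, which then adds nothing to the difference. Both neonatal columns that share a number also share a block, so the smaller number of calls in adults cannot show whether samples are paired. The same setting called 1648 genes and 1 of the 44 in TSC1 KO islets. It called 6614 genes, 7 of the 10 and 18 of the 44 in Db islets. At 2 libraries a group and 7 summed Derl3 counts in TSC1 KO islets, depth limits how far below the control level that gene lies.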

Other observations

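Derl2 (4369 bases), Sel1l (6300 bases), Edem1 (6077 bases) and Edem3 (6327 bases) had a higher CPM in every β-cell library than in every islet library, and the other 6 genes did not. Sel1l ranged from 444 to 489 CPM in adult and 443 to 876 CPM in neonatal β-cells, and lay between 46.0 and 82.9 CPM in the 8 islet libraries. Derl2 ranged from 99.6 to 109 CPM in adult and 96.1 to 133 CPM in neonatal β-cells, and lay between 23.7 and 71.9 CPM in the islets. Edem3 ranged from 318 to 363 CPM in adult and 243 to 447 CPM in neonatal β-cells, and lay between 23.1 and 47.4 CPM in the islets. Edem2 (2290 bases), of the same family as Edem1 and Edem3, made up 77.8% to 86.5% of the EDEM CPM per kb in Db and in both kinds of control islets, 64.6% and 69.6% in TSC1 KO islets, and 18.1% to 44.4% in β-cells. The tables were normalized separately and differ in tissue, age and depth, which cannot be told apart here; no test was made. Insulin genes took 1.83% to 7.22% of gene counts in β-cells and 0.969% to 70.0% in islets. Before the TMM factor, a larger insulin share lowers the CPM of every other gene. That factor was set within each table, and levels without the insulin counts were not computed. TSC1 KO islets had the smallest share, 0.969% and 1.05%, and also the lowest Derl2, at 27.3 and 23.7 CPM. Whether the order of β-cell and islet libraries, that of Derl2 above all, depends on the insulin share was not tested. This pattern was noticed after the values were seen.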
